A study of Mus musculus with 24 samples.

Results

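The genes described are 29 that make cholesterol and fatty acids or control that synthesis, taken from a fixed list of symbols. Each gene is represented by its brightest probe set (several short probes that read 1 transcript) by mean over all arrays, among probe sets annotated to that symbol alone. Of the 29 genes, 27 had such a probe set and 26 passed the filter on dim probe sets, among 12393 genes with a probe set of their own on the array. Insig1 and Acat2 had none and were not analysed here. Mvk, which phosphorylates mevalonate, lay below the filter with strain means between 4.25 and 4.74 and was not tested.

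Total RNA of the ventral prostate, a secretory lobe of the mouse prostate, was measured on 24 Affymetrix arrays. It came from inbred mice of AKR, SWR, FVB, 129X1, C57BL/6 and BALB/c background, 6 strains in all, and 4 biological replicates represent each. All were wild type, 8 weeks old, untreated and on a standard diet. The title names the identification of cancer modifiers as the aim, and the comparison implied for these genes is how their levels differ among strains. The labels do not say whether replicates were separate or pooled animals, so p-values measure only the spread between these samples. In whole tissue, fewer cells of a type and less RNA per cell cannot be told apart.

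Cholesterol is built from acetyl-CoA through mevalonate, the isoprenoid farnesyl diphosphate, squalene and lanosterol, while fatty acids are built from the same acetyl-CoA through malonyl-CoA. The transcription factors encoded by Srebf2 and Srebf1 switch on these enzymes when sterols are scarce: Scap escorts the precursors out of the endoplasmic reticulum, and Insig1 holds them there when sterols are plentiful. In human prostate cancer cells, androgens are known to raise many of the same genes through this system.

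The promoters are shown because the sterol regulatory element, the sequence bound by these factors, is what the genes are known to share. In the RefSeq promoters of GRCm38.p6 (250 bases before to 50 after the start of transcription), 25 of the 29 genes had at least 1 entry. One classical spelling of that element, TCACNCCA on either strand, was found in 3 genes, Hmgcs1, Srebf2 and Msmo1, 12% of the 25 against 4.97% of all 27025 genes in the table. CCAAT on either strand, the site of a factor known to work beside it, was found in 21 genes (84% against 41.1%), and GGGCGG in 20 (80% against 38.2%). No TCACNCCA match overlapped a CCAAT match, and the element began 137 bases before the start in Hmgcs1, 162 in Srebf2 and 177 in Msmo1. The 250 bases before the start are printed for these 3 genes and, for contrast, for Sc5d, the gene with the widest strain difference and no such element in the window. Capitals mark TCACNCCA matches and CCAAT matches (ATTGG where CCAAT lies on the other strand). The regions are chr13:119690101-119690350 (plus strand) for Hmgcs1, chr15:82147019-82147268 (plus) for Srebf2, chr8:64733579-64733828 (minus) for Msmo1 and chr9:42264301-42264550 (minus) for Sc5d.
Hmgcs1: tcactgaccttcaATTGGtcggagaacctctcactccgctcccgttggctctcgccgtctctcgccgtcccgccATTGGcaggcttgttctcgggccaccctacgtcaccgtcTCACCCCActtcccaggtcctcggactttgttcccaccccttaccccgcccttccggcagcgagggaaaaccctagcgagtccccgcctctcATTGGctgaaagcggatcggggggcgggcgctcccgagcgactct
Srebf2: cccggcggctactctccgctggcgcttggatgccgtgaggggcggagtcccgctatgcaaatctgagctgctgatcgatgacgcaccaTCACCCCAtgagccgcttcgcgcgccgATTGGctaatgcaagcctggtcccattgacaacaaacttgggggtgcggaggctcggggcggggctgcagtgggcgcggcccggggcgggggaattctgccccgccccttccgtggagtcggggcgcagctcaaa
Msmo1: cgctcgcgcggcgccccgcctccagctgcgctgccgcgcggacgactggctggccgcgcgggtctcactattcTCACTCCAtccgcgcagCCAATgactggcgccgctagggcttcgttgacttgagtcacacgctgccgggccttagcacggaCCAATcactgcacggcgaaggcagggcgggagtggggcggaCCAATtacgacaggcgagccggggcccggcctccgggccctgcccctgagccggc
Sc5d: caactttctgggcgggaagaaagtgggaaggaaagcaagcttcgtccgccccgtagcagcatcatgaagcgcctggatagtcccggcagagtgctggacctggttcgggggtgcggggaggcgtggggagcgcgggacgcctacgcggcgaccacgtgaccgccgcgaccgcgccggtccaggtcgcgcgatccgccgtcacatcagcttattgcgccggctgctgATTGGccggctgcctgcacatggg

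Values are log2 of the intensity plus 16 after each array was rescaled to a common trimmed mean, and a probe set was called when its limma p-value, adjusted over all 15775 tested probe sets, was under 0.05. Folds are the antilog of differences on that scale, so folds of faint genes are compressed. The prostate identity of the tissue showed in the luminal epithelial markers, of which 7 of 10 had a probe set and all 7 were tested: Pbsn, the androgen-driven secretory gene probasin, averaged 11.77, and the keratin Krt18 averaged 10.88. Of the 24 arrays, 2 had a skeletal muscle marker score above 1, 129X1 replicate 4 (1.72) and SWR replicate 4 (1.195), the score being the mean of the 10 markers centred on all arrays. Adipocyte scores (7 of 9 markers) ran between -0.38 and 1.90 in FVB and between -0.06 and 1.81 in BALB/c, but between -0.86 and -0.72 in C57BL/6. In BALB/c the luminal score was 0.24 to 0.44, above every other array (highest 0.13). Of the 7 tested luminal markers, 5 were called higher in BALB/c and 1 was called lower. The smooth muscle score in BALB/c was -0.84 to -0.59, below every other array (lowest -0.48). The basal epithelial score was -0.66 to -0.47 in BALB/c and -0.73 to -0.54 in C57BL/6, but 0.54 to 0.63 in 129X1 and 0.33 to 0.63 in SWR. The part of these shifts in tissue makeup in the strain differences below was not tested, apart from the 2 alternatives named with them, the adipocyte score as a covariate and the 2 high-muscle arrays left out. Because the adipocyte score itself differed by strain, that covariate cannot separate adipocyte content from strain.

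Among the 6 strains, 16 of the 26 tested genes differed by limma's moderated F test, where 36.4% of all tested probe sets and 35% of the brightest probe sets per gene were called. Their median range between the highest and lowest strain mean was 1.49-fold, against 1.41-fold over all tested probe sets, so most strain differences in these genes were small. All 3 control genes, 9 of the 16 cholesterol enzymes and 4 of the 7 fatty acid genes were called. Over the 15 pairs of strains, 57 of 390 tests were called, where 11.4% of all such tests passed. No gene was called between 129X1 and FVB (8.49% of all tested probe sets; 6 genes had an unadjusted limma p under 0.05) and 7 were between FVB and C57BL/6 (10.8%). Of the 16 calls in the F test, 10 were also made under every alternative and with each array left out; those of Srebf2, Scap, Idi1, Fdft1, Cyp51 and Msmo1 were not. The comparisons of strains share arrays and are not independent of each other.

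**Figure D1:**
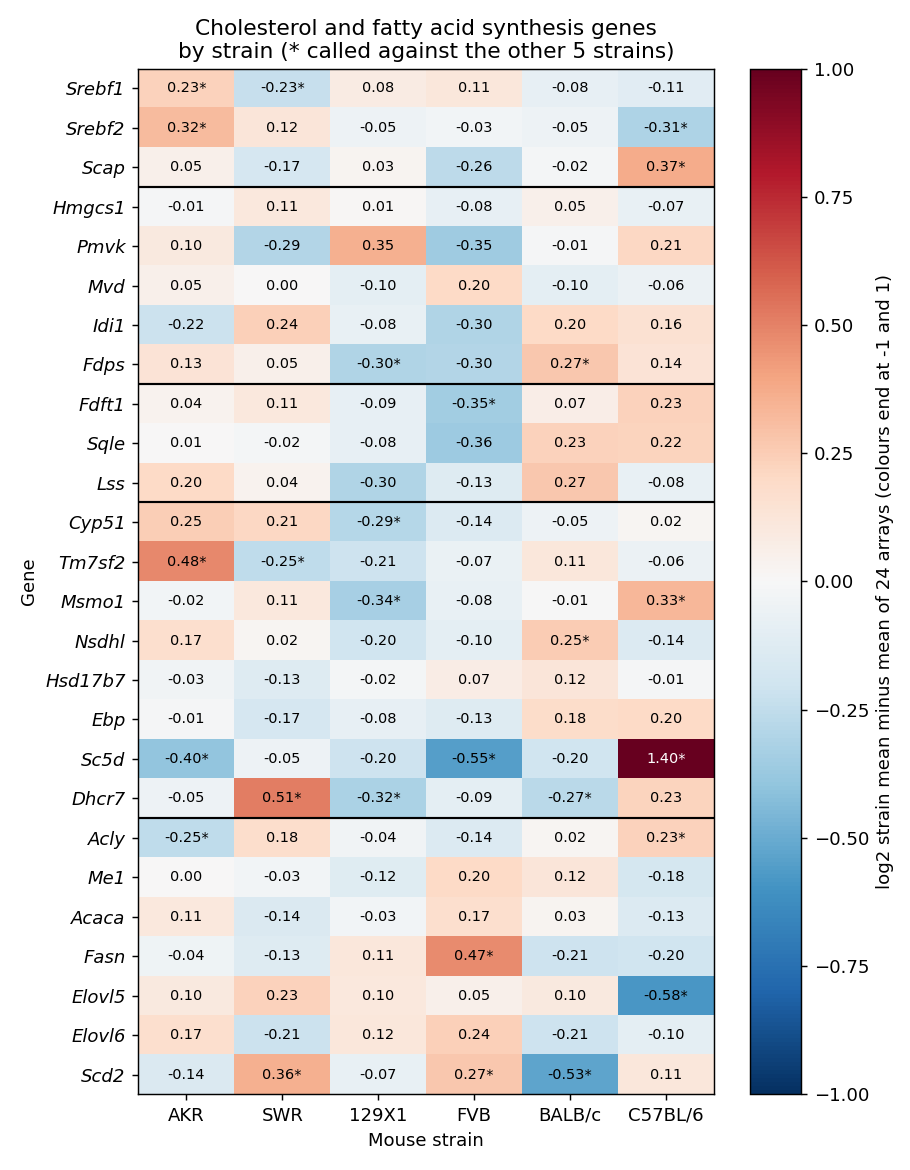
Strain means of the 26 tested genes (rows, grouped by role) in 6 strains (columns), as log2 differences from each gene's mean over 24 arrays, with red above and blue below. Stars mark calls against the other 5 strains, and Sc5d in C57BL/6 has the largest difference shown.

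The 12 called genes with the widest ranges are given array by array, in the order of the pathway. Sc5d stood far from the others, with strain means 3.89-fold apart, while the ranges of the other 11 ran between 1.45-fold for Cyp51 and 1.84-fold for Scd2.

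**Figure D2:**
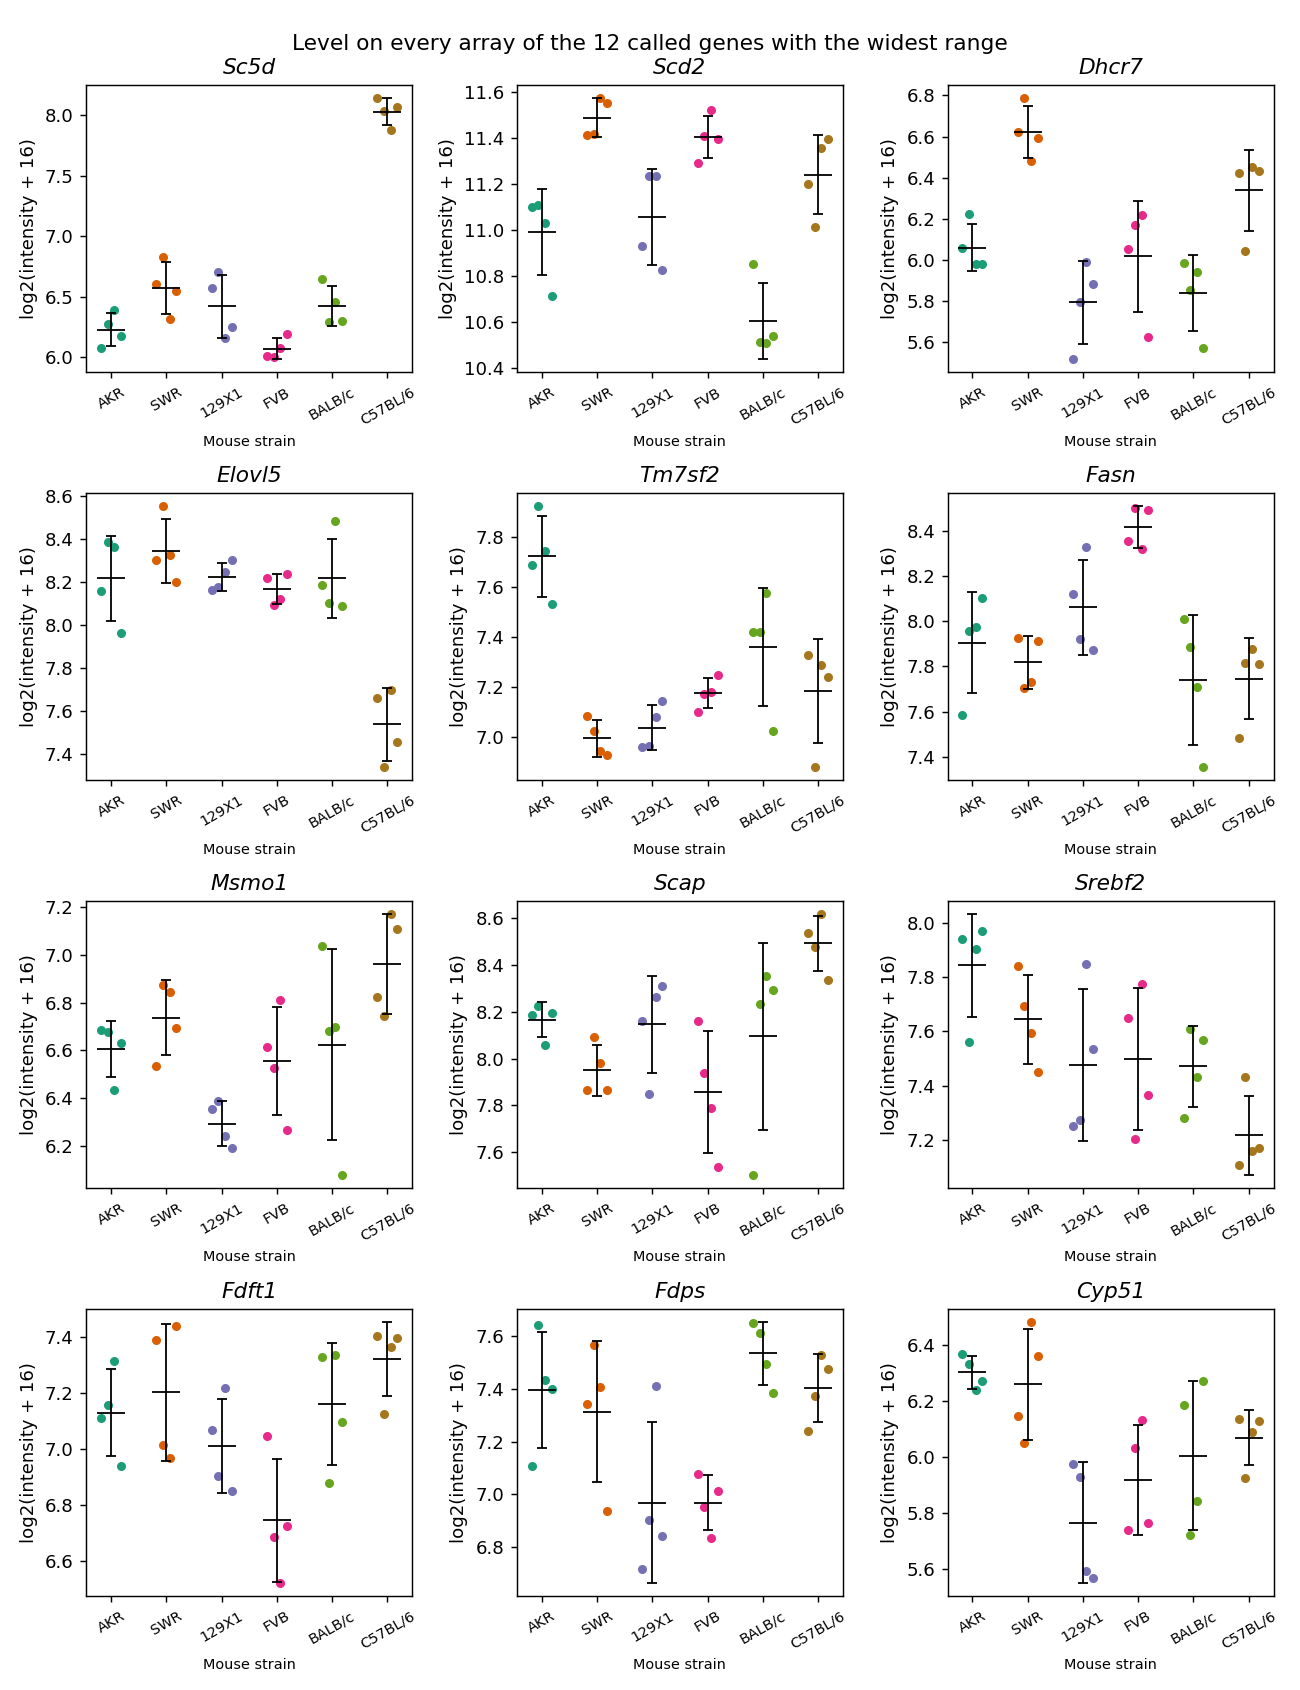
Log2(intensity + 16) on every array for the 12 called genes with the widest range, by strain, with points for the 4 arrays, a black bar for the mean and whiskers of 1 SD. The 4 C57BL/6 arrays stand above all others for Sc5d and below all others for Elovl5, and the 4 SWR arrays stand above all others for Dhcr7.

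Among the control genes, Srebf2 was highest in AKR and lowest in C57BL/6, the strain where Scap was highest. Srebf2, which encodes the factor that mainly drives cholesterol enzymes, measured 7.94, 7.56, 7.90 and 7.97 on the AKR arrays, against a lowest of 7.11, a median of 7.44 and a highest of 7.85 on the other 20. In C57BL/6 it measured 7.11, 7.43, 7.16 and 7.17, against 7.20, 7.58 and 7.97 (lowest, median, highest) in the others. It was thus high on 3 of 4 AKR arrays and low on 3 of 4 C57BL/6 arrays, with overlap in both cases. By limma it was 0.38 (SE 0.113, adjusted p = 0.0343) higher in AKR and -0.37 (SE 0.113, adjusted p = 0.0366) from the other strains in C57BL/6, on the log2 scale. The AKR call was lost without AKR replicate 1 (0.113), 3 (0.114) or 4 (0.138), and the C57BL/6 call without its replicate 1 (0.144), 3 (0.115) or 4 (0.103), all as adjusted p. The AKR call was also lost with the adipocyte score in the model (0.27), and the C57BL/6 call with the mean of the gene's probe sets (0.237), the second of which was not called (F adjusted p = 0.147).

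Scap, the escort protein, ran the other way in C57BL/6. Its values were 8.53, 8.48, 8.62 and 8.33 in C57BL/6, against a lowest of 7.50, a median of 8.13 and a highest of 8.35 in the other strains. Only C57BL/6 replicate 4 reached into the range of the others. The difference was 0.45 (SE 0.122, limma adjusted p = 0.0178), 1.36-fold. It was lost without C57BL/6 replicate 1 (adjusted p = 0.0666), 2 (0.0507) or 3 (0.0824), and with the adipocyte score in the model (0.373). Srebf1, which encodes the factor that mainly drives fatty acid genes, was 1.21-fold higher in AKR (limma adjusted p = 0.0281), with an AKR mean of 8.55 ± 0.05 (SD, n = 4) against 8.27 for the other strains. In SWR it was 1.21-fold lower (8.09 ± 0.06, SD, n = 4, against 8.36; adjusted p = 0.0292). Each Srebf1 call was lost when any of the strain's own 4 arrays was left out, with adjusted p up to 0.105 in AKR and 0.101 in SWR. Both were also lost with the adipocyte score in the model (0.0859 in AKR and 0.0677 in SWR), and the SWR call without the 2 high-muscle arrays (0.0679).

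Among the early steps, Fdps, which makes farnesyl diphosphate, was the only gene called against the other strains. It measured 6.72, 6.90, 7.41 and 6.84 in 129X1, against a lowest of 6.83, a median of 7.39 and a highest of 7.65 in the others. In BALB/c it measured 7.65, 7.61, 7.50 and 7.39, against 6.72, 7.29 and 7.64. Replicate 3 of 129X1 lay at the level of the other strains, and both groups overlapped the rest. Fdps was -0.36 (SE 0.114, limma adjusted p = 0.0437) from the other strains in 129X1 and 0.33 (SE 0.114, adjusted p = 0.0482) above them in BALB/c. Both calls lay next to the threshold: they were lost on leaving out 17 and 19 of the 24 arrays in turn, with adjusted p up to 0.216 in 129X1 and 0.145 in BALB/c. Both were also lost without rescaling (0.0661 and 0.151), without the filter (0.0583 and 0.0617) and without the 2 high-muscle arrays (0.0947 and 0.0624), and the BALB/c call with a pseudocount of 4 (0.0522) or the adipocyte score in the model (0.099).

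Hmgcs1, the synthase before the rate-limiting reductase, ranged 1.14-fold and was not called (F adjusted p = 0.812), although another, dimmer one of its 4 probe sets was (0.0122), higher in AKR (0.0145) and lower in 129X1 (0.0173). Pmvk and Mvd, which carry phosphorylated mevalonate on to isopentenyl diphosphate, were not called. A dimmer Mvd probe set was called lower in 129X1 (-0.43, limma adjusted p = 0.0465), though not in the F test (0.105). The isomerase Idi1 passed the F test (1.45-fold, adjusted p = 0.048) with no call in any pair of strains. The Idi1 call was lost on leaving out 18 of the 24 arrays in turn (adjusted p up to 0.0926 without FVB replicate 4).

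At the squalene step, Fdft1, squalene synthase, was low in FVB. It measured 7.05, 6.68, 6.52 and 6.72 in FVB, against a lowest of 6.85, a median of 7.14 and a highest of 7.44 in the others. On 3 arrays the FVB values lay below every other array, and FVB replicate 1 did not. The difference was -0.42 (SE 0.109, limma adjusted p = 0.0186), or 1.34-fold lower. Leaving out FVB replicate 2 (adjusted p = 0.0675), 3 (0.128) or 4 (0.0635) ended the call, as did the mean over its probe sets (0.37) and the adipocyte score in the model (0.239). Another Fdft1 probe set was also lower in FVB (adjusted p = 0.029), while its remaining 2 were not called. Sqle, the oxygenase that acts on squalene, and Lss, which closes the ring to lanosterol, were not called (F adjusted p = 0.0719 and 0.359), though Sqle was called between FVB and both BALB/c and C57BL/6.

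Of the 8 genes that turn lanosterol into cholesterol, 6 were called in the F test, and Hsd17b7 and Ebp were not. Cyp51, which removes a methyl group from lanosterol, measured 5.97, 5.93, 5.59 and 5.57 in 129X1, against a lowest of 5.72, a median of 6.13 and a highest of 6.48 elsewhere. Of these arrays, 2 lay below every array of the other strains. The difference was -0.34 (SE 0.106, limma adjusted p = 0.0344), and it lost its call without 129X1 replicate 3 (0.15) or 4 (0.17) and without the 2 high-muscle arrays (0.196). The call was also lost, by a small margin, with a pseudocount of 64 (difference -0.19, adjusted p = 0.0513), without rescaling (0.051) and with the replicate number as a block (0.0502).

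Tm7sf2, a sterol reductase that acts after Cyp51, had the largest difference of the 5 genes called in AKR. It measured 7.69, 7.93, 7.74 and 7.53 in AKR, against a lowest of 6.88, a median of 7.12 and a highest of 7.58 in the other strains. Of the AKR arrays, 3 lay above every other array. AKR was higher by 0.57 (SE 0.093, 1.49-fold, limma adjusted p = 0.000204) and was called against each of the other 5 strains, including its nearest neighbour BALB/c (adjusted p = 0.0478). In SWR, Tm7sf2 was 1.23-fold lower (7.09, 7.02, 6.94 and 6.93, against 6.88 to 7.93; adjusted p = 0.0383), a call that each of the 4 SWR arrays and C57BL/6 replicate 4 could end when left out (0.0503 to 0.112). That SWR call was also lost without rescaling (0.0549), with the replicate number as a block (0.0512), with the adipocyte score in the model (0.0709) and without the 2 high-muscle arrays (0.129).

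Msmo1, the methyl sterol oxidase with a sterol regulatory element match in its promoter, differed at both ends of its range. It measured 6.36, 6.39, 6.24 and 6.19 in 129X1, against a lowest of 6.08, a median of 6.69 and a highest of 7.17 in the others. In C57BL/6 it measured 6.82, 6.74, 7.17 and 7.11, against 6.08, 6.62 and 7.04. Both groups overlapped the other strains. The differences were -0.40 in 129X1 (SE 0.122, limma adjusted p = 0.032) and 0.40 in C57BL/6 (SE 0.122, adjusted p = 0.0352). Leaving out any 129X1 array ended the first (0.0563 to 0.119), and leaving out C57BL/6 replicate 1 (0.0549), 3 (0.163) or 4 (0.131) ended the second. Both were lost without the 2 high-muscle arrays (0.13 and 0.0583), and the C57BL/6 call with the adipocyte score in the model (0.203). At their brightest probe sets the other 2 genes with that motif divided: Srebf2 was low where Msmo1 was high, and Hmgcs1 was not called. The second Srebf2 probe set was not low in C57BL/6 (0.05, limma adjusted p = 0.807). A dimmer Hmgcs1 probe set was called lower in 129X1 (-0.45, limma adjusted p = 0.0173), as Msmo1 was.

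Nsdhl, the dehydrogenase that follows, was 1.23-fold higher in BALB/c (7.63 ± 0.11, SD, n = 4, against 7.33 for the other strains; limma adjusted p = 0.0193). It lost the call without BALB/c replicate 1 (0.0913) or 4 (0.0509), without rescaling of the arrays (0.102) and with the adipocyte score in the model (0.303).

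Sc5d, the desaturase that makes lathosterol into 7-dehydrocholesterol, gave the widest difference of the 26 genes. Its rescaled intensity was 266.4, 246.3, 218.7 and 252.4 on the C57BL/6 arrays, against 48.06 to 97.98 on the other 20. On the log2 scale these were 8.14, 8.03, 7.87 and 8.07 in C57BL/6, against a lowest of 6.00, a median of 6.30 and a highest of 6.83. All C57BL/6 arrays lay above all others, a separation seen in that direction in 0.919% of tested probe sets. C57BL/6 was higher by 1.68 (SE 0.100, 3.21-fold, limma adjusted p = 1.8e-11) and was called against each of the other 5 strains.

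The same probe set was also called lower in FVB (6.01, 6.00, 6.08 and 6.19, against a lowest of 6.08, a median of 6.50 and a highest of 8.14) and in AKR (6.08, 6.27, 6.39 and 6.18, against 6.00, 6.50 and 8.14). The differences were -0.67 (SE 0.100, adjusted p = 9.89e-05) and -0.47 (SE 0.100, adjusted p = 0.00301). Both are measured against a mean that includes the high C57BL/6 values: among the 5 other strains, the only pair called was SWR against FVB.

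The dimmer Sc5d probe set did not show the C57BL/6 difference. Its C57BL/6 mean was 5.93, against strain means of 5.61 to 6.17 elsewhere, and it was not called in C57BL/6 (limma adjusted p = 0.517), while SWR was called higher (0.0292). It was called in neither FVB (-0.09, limma adjusted p = 0.763) nor AKR (-0.19, 0.397). With both probe sets averaged, the C57BL/6 difference was 0.92 (adjusted p = 1.6e-08) and the FVB difference -0.38 (0.00281). The sequence that the probes match in each strain was not analysed here.

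**Figure D3:**
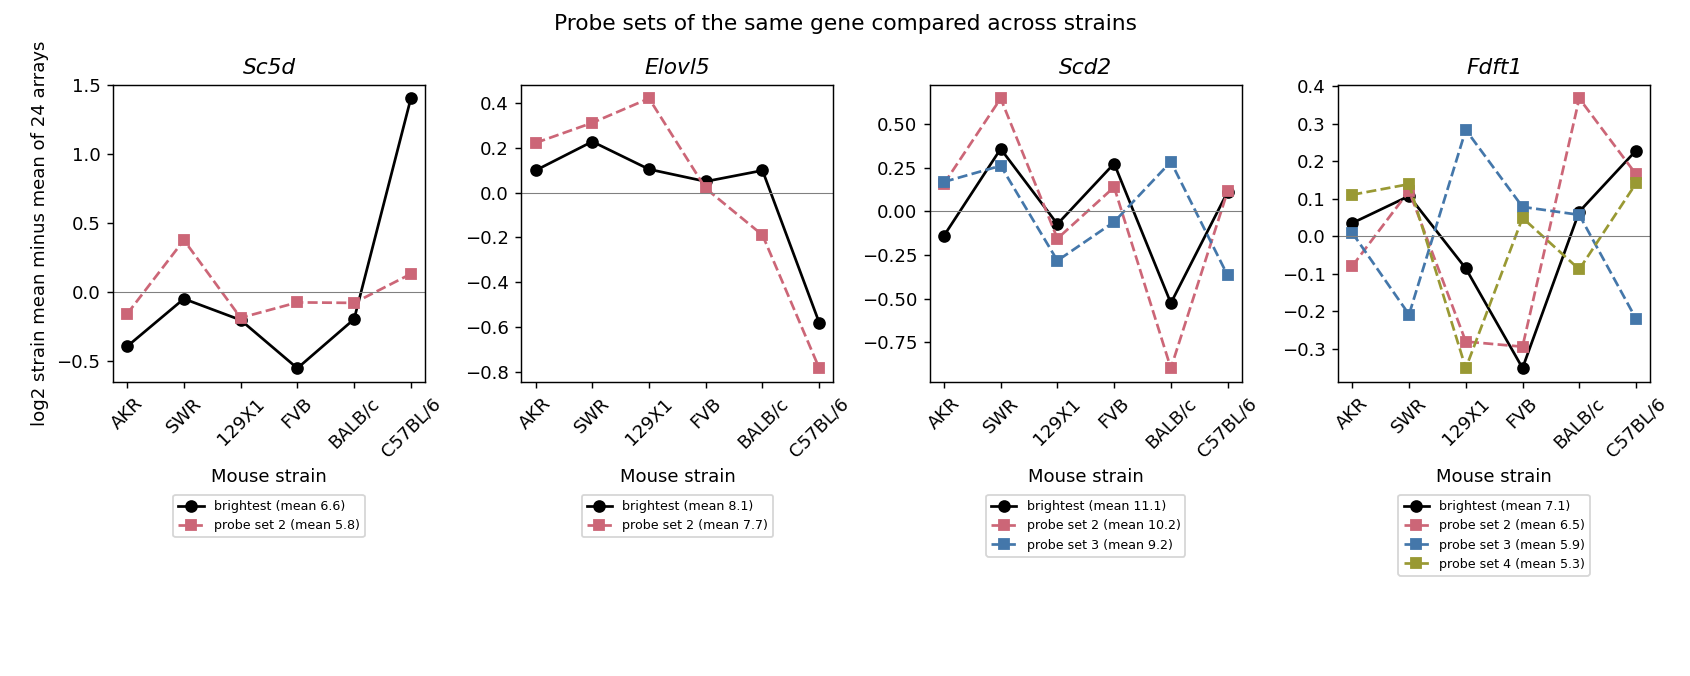
Strain means of each tested probe set of Sc5d, Elovl5, Scd2 and Fdft1, as log2 differences from that probe set's mean over 24 arrays, with the brightest in black. For Sc5d the black line is far above 0 in C57BL/6 and the other is not, for Elovl5 both lines are lowest there, and for Scd2 the dimmest probe set (blue) runs against the other 2 in BALB/c.

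Dhcr7, which carries out the last step to cholesterol, was highest in SWR. It measured 6.62, 6.79, 6.48 and 6.60 in SWR, against a lowest of 5.52, a median of 5.99 and a highest of 6.45 in the other strains. No SWR array overlapped the others, which held for 0.526% of tested probe sets in that direction. SWR was higher by 0.61 (SE 0.107, 1.53-fold, limma adjusted p = 0.000537), or by 0.38 with a pseudocount of 64. SWR was called against AKR, 129X1, FVB and BALB/c but not against C57BL/6, whose mean came next (6.34 ± 0.20, SD, n = 4).

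At the low end of Dhcr7 stood 129X1 (5.52, 5.79, 5.99 and 5.88) and BALB/c (5.99, 5.86, 5.94 and 5.58). The other strains had a lowest of 5.58 and a highest of 6.79 against 129X1, and 5.52 and 6.79 against BALB/c, so both overlapped the rest. The differences were -0.38 in 129X1 (SE 0.107, limma adjusted p = 0.021) and -0.33 in BALB/c (SE 0.107, adjusted p = 0.0348). The 129X1 call was lost without its replicate 1 (0.148) or 2 (0.0601), and the BALB/c call without its replicate 2 (0.0697) or 4 (0.188). The BALB/c call was also lost with quantile normalization (0.06) and with the adipocyte score in the model (0.306). Without the 2 high-muscle arrays both calls were lost (0.05 in 129X1 and 0.0506 in BALB/c). With a pseudocount of 64 the differences were -0.22 in 129X1 and -0.19 in BALB/c.

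On the fatty acid side, Fasn, the synthase that builds palmitate, was high in FVB. It measured 8.36, 8.50, 8.32 and 8.49 in FVB, against a lowest of 7.35, a median of 7.88 and a highest of 8.33 elsewhere. A single array of another strain, 129X1 replicate 3, reached the FVB range. FVB was higher by 0.56 (SE 0.110, 1.48-fold, limma adjusted p = 0.00177) and was called against every strain but 129X1. The adipocyte score was high on FVB replicates 2, 3 and 4 (1.51, 1.22 and 1.90) but -0.38 on replicate 1, where Fasn was still 8.36. With that score in the model the difference was 0.54 and the adjusted p 0.0754. BALB/c, with adipocyte scores up to 1.81, had a Fasn mean of 7.74 ± 0.29 (SD, n = 4), close to the 7.75 of C57BL/6. The part of adipocyte RNA in the FVB level was not tested beyond these values.

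**Figure D4:**
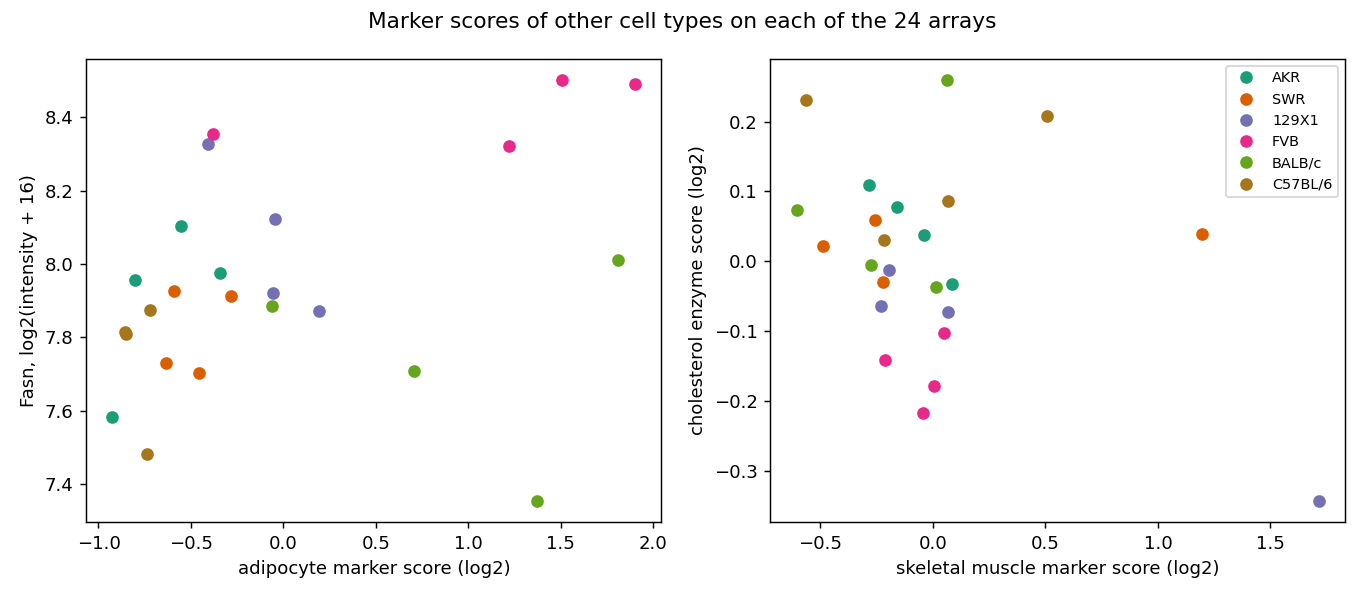
Each point is 1 of the 24 arrays, coloured by strain. Left, the Fasn level against the adipocyte marker score, where the 4 FVB arrays lie at 8.32 to 8.50 at scores of -0.38 to 1.90. Right, the mean centred log2 level of 17 cholesterol enzymes against the skeletal muscle marker score, where 129X1 replicate 4 lies at -0.34 with a muscle score of 1.72.

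Elovl5, which lengthens polyunsaturated fatty acids, was low in C57BL/6 on every array. It measured 7.66, 7.34, 7.70 and 7.45 in C57BL/6, against a lowest of 7.96, a median of 8.21 and a highest of 8.55 in the others. The groups did not overlap, which in that direction held for 0.628% of tested probe sets. The difference was -0.70 (SE 0.091, 1.62-fold lower, limma adjusted p = 1.05e-05), and C57BL/6 was called against each of the other 5 strains. The second Elovl5 probe set was lower there as well, by -0.94 (adjusted p = 0.000128).

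Scd2, a desaturase that puts a double bond into stearate and palmitate, was low in BALB/c. It measured 10.85, 10.52, 10.51 and 10.54 in BALB/c, against a lowest of 10.72, a median of 11.26 and a highest of 11.57 in the others. Of the BALB/c arrays, 3 lay below every other array. The difference was -0.63 (SE 0.095, 1.55-fold lower, limma adjusted p = 4.72e-05), with calls against all 5 other strains. In SWR it was higher (11.41, 11.42, 11.57 and 11.55, against a lowest of 10.51, a median of 11.11 and a highest of 11.52), by 0.43 (SE 0.095, adjusted p = 0.00458).

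Scd2 in FVB measured 11.29, 11.41, 11.52 and 11.39, against 10.51, 11.11 and 11.57 for the others, and was higher by 0.33 (SE 0.095, limma adjusted p = 0.0363). This call was lost on leaving out any FVB array (0.0562 to 0.163), with the adipocyte score in the model (0.376) and with the mean of its probe sets (0.341). Of the other Scd2 probe sets, the second was also lower in BALB/c (-1.08, adjusted p = 1.43e-06) and the dimmest was higher there (0.34, adjusted p = 0.03).

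Acly, which splits citrate into the acetyl-CoA used by both pathways, was 1.21-fold higher in C57BL/6 (9.01 ± 0.16, SD, n = 4, against 8.73 for the others; limma adjusted p = 0.0182) and 1.24-fold lower in AKR (8.53 ± 0.08 against 8.83; adjusted p = 0.0115). These calls were lost without C57BL/6 replicate 3 (0.148) and without AKR replicate 3 (0.0643), and both with the adipocyte score in the model (0.0868 in C57BL/6 and 0.0548 in AKR), where the differences were 0.28 and -0.30. Another Acly probe set was also lower in AKR (-0.51, limma adjusted p = 0.00595) but was not called in C57BL/6 (0.127). A dimmer one was called in neither AKR (limma adjusted p = 0.94) nor C57BL/6 (0.331), but was higher in SWR (0.0131) and lower in BALB/c (0.0442). Me1, which supplies NADPH, Acaca, which makes malonyl-CoA, and the elongase Elovl6 were not called (F adjusted p = 0.106, 0.261 and 0.0902).

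Counted strain by strain, the calls did not run along the whole pathway. In AKR 3 genes were higher and 2 lower (4.67% and 5.12% of tested probe sets), in SWR 2 and 2 (5.52% and 5.04%), and in FVB 2 and 2 (3.45% and 3.65%). BALB/c had 2 higher and 2 lower (8.3% and 10.6%), and C57BL/6 had 4 higher and 2 lower (5.65% and 5.45%). In 129X1 no gene was called higher (1 had an unadjusted limma p under 0.05) and 4 were lower, all cholesterol enzymes, namely Fdps, Cyp51, Msmo1 and Dhcr7 (6.38% and 5.27%). Without both arrays of high skeletal muscle score, no gene was called in 129X1 (6 had an unadjusted p under 0.05), and these 4 had adjusted p of 0.0947, 0.196, 0.13 and 0.05 in that order. With the adipocyte score in the model, 14 of the 27 calls over all strains were lost, none of them in 129X1. That score itself differed by strain, with means of 1.06 in FVB, 0.96 in BALB/c, -0.66 in AKR and -0.79 in C57BL/6. In 129X1 its mean was -0.08, near the centre. A call lost or kept in this model therefore cannot tell adipocyte content from strain.

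Called or not, 14 of the 16 tested cholesterol enzymes lay below the mean of the other strains in 129X1, with a median difference of -0.18, where 48.5% of all tested probe sets lay below and their median was 0.01. Without 129X1 replicate 4 the count was 10 of 16 and the median -0.10. On that array the muscle markers were at their highest and the mean level of cholesterol enzymes at its lowest (-0.34, against -0.07 to -0.01 on the other 129X1 arrays). SWR replicate 4, with the second highest muscle score, had a mean enzyme level of 0.04. Leaving out 129X1 replicate 1, 2 or 4 each cut the called genes of that strain from 4 to 1. The muscle scores of these arrays were 0.07, -0.20 and 1.72. Markers of other cell types were also high in 129X1. The basal epithelial score was 0.54 to 0.63 on its 4 arrays (3 of 5 markers called higher), against -0.73 to 0.63 elsewhere. The smooth muscle score was 0.13 to 0.57 (4 of 8 called higher and all 8 above the mean of the other strains), against -0.84 to 0.80. Its strain mean was higher still in FVB (0.45, against 0.38 in 129X1). The endothelial (0.18) and leukocyte (0.20) scores had their highest strain means in 129X1, where 1 of 5 and 1 of 6 markers were called higher. Next came FVB for the endothelial score (0.14) and BALB/c for the leukocyte score (0.17). The part of these cell types in the 129X1 values was not tested beyond leaving out the high-muscle arrays.

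In FVB the cholesterol enzymes and the fatty acid genes lay on opposite sides. Of the cholesterol enzymes 14 of 16 lay below the other strains (median -0.15, 47.8% of all tested probe sets below), and the count was 12 to 14 when any 1 array was left out. Of the fatty acid genes 6 of 7 lay above (median 0.24, 52.2% of all above), a count that was 6 with each array left out in turn. Of the called FVB genes, Sc5d and Fdft1 are cholesterol enzymes and were lower, while Fasn and Scd2 are fatty acid genes and were higher. The Sc5d call was made against a mean that includes the high C57BL/6 values, and the dimmer Sc5d probe set was not called in FVB (limma adjusted p = 0.763). Markers of other cell types were high in FVB too: 7 of 8 smooth muscle markers were called higher (score 0.31 to 0.61, against -0.84 to 0.80 elsewhere), as were 4 of 6 tested adipocyte markers (median difference 1.67). With the adipocyte score in the model the counts were again 14 of 16 below and 6 of 7 above, with medians of -0.25 and 0.25, and the part of smooth muscle was not tested. C57BL/6 showed medians of 0.18 for cholesterol enzymes and -0.16 for fatty acid genes, with 10 of 16 and 2 of 7 above the other strains. No test of the difference between the 2 groups of genes was made.

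**Figure D5:**
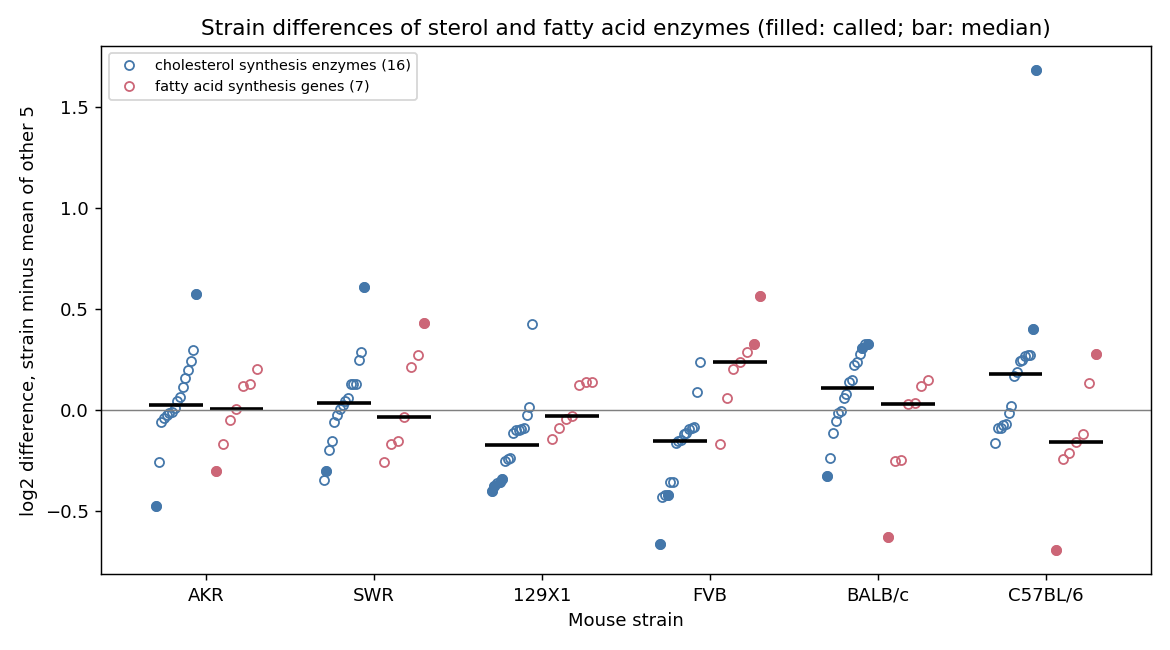
Log2 difference of each strain from the mean of the other 5, for the 16 tested cholesterol enzymes (blue) and the 7 fatty acid genes (red). Filled points are called genes and black bars are medians, which in FVB lie at -0.15 for cholesterol enzymes and 0.24 for fatty acid genes.

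Within strains the cholesterol enzymes moved together only weakly. After strain means were removed, the 120 pairs of enzymes had correlations over the 24 arrays between -0.51 and 0.60, with a median of 0.15, and 77 were above 0. The 21 pairs of fatty acid genes had a median of 0.05. The 112 pairs of a cholesterol enzyme with a fatty acid gene had a median of 0.07, and 72 were above 0. That share was close to the share among the enzyme pairs, so positive correlations were not particular to the cholesterol enzymes. These correlations are descriptions, over arrays that share their scaling and tissue makeup.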

How the data were processed

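Total RNA of ventral prostate was hybridised to Affymetrix MOE430A arrays. The deposited values are linear intensity, which the authors made with MAS5, per the submitters' processing notes, which give no version; other settings are not given in the sources used here. All 24 deposited columns had a mean of 143.1. Precision is limited by the number of arrays, which carry no count depth.

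Because 2% trimmed means ran between 91.4 and 105, each array was rescaled to 98.7, 16 was added and log2 taken. Of 22690 probe sets, 64 controls and 6851 that did not exceed their array's 40th percentile on at least 4 arrays were left out, which left 15775. Genes were named from the platform annotation where a probe set had 1 symbol (20393 had 1, 691 several and 1606 none), updated through RefSeq gene IDs (20364 matched). Strain was taken from the sample titles.

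Tests used limma 3.58.1 in R 4.3.3: 1 coefficient per strain, empirical Bayes moderation, an F test among strains, a contrast of every strain with the mean of the 5 remaining ones, and the 15 pairs. P-values were two-sided, with Benjamini-Hochberg adjustment over all tested probe sets within each comparison. The steps were tested on simulated data. The replicate numbers were checked for pairing: same-numbered arrays of different strains had a mean residual correlation of 0.0053 over 60 pairs (-0.208 to 0.153), so they were not used as pairs.

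Array values are given for the 12 F-called genes of widest range between strain means and any further gene called in a strain with a difference of at least 0.5, and the remaining genes by range and count. The genes and lists were chosen with earlier results of these data known. Alternatives were other pseudocounts (4 and 64), no rescaling, quantile normalization, no filter, the mean of a gene's probe sets, the replicate number as a block, the adipocyte score as a covariate, each array left out and, chosen after seeing the data, both arrays with a muscle score above 1 left out.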

Additional observations from a re-analysis of the deposited data

Results flagged for a closer look

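Within the 4 arrays of a strain, 9 of 156 groups (26 genes in 6 strains) held an array far from the other 3, by Dixon's test of the gap to the nearest array over the group's range. Chance flags about 1 in 20 such groups. All values are log2(intensity + 16).

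Among the control genes, Srebf1 was 8.006 on SWR replicate 3, with the other SWR arrays at 8.106 to 8.126, a group with little spread. Srebf2 was 7.562 on AKR replicate 2, with the others at 7.904 to 7.969. Scap was 7.503 on BALB/c replicate 1, with the others at 8.232 to 8.352.

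Among the cholesterol enzymes, Lss was 4.822 on 129X1 replicate 4, with the others at 6.38 to 6.695; this is the array with the highest skeletal muscle score. Fdft1 was 7.126 and Dhcr7 6.045 on C57BL/6 replicate 2, with the others at 7.363 to 7.404 and at 6.424 to 6.452.

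Among the fatty acid genes, Acaca was 5.765 on BALB/c replicate 2, with the others at 5.492 to 5.533. Fasn was 7.483 on C57BL/6 replicate 1, with the others at 7.81 to 7.876. Scd2 was 10.85 on BALB/c replicate 1, with the others at 10.51 to 10.54, and that array had an adipocyte score of 1.81, above the other BALB/c arrays.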

How the results depend on the processing

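The count of genes that differed among strains was 16, and 11 to 17 with each array left out. The 57 calls over pairs of strains became 50 to 62 in the same way. Under the 9 alternatives these counts were 12 to 17 and 40 to 67. With each array left out, calls against the other strains became 2 to 5 in AKR (5), 2 to 6 in SWR (4), 1 to 5 in 129X1 (4), 2 to 5 in FVB (4), 1 to 4 in BALB/c (4) and 2 to 6 in C57BL/6 (6). The lowest counts came without AKR replicate 3, without SWR replicate 1, 2 or 4, without 129X1 replicate 1, 2 or 4, without FVB replicate 2, 3 or 4, without BALB/c replicate 4 and without C57BL/6 replicate 3. Without rescaling, 129X1 had 2 calls. With the mean of each gene's probe sets, FVB had 2. With the adipocyte score as a covariate, AKR had 3, SWR 2, FVB 1, BALB/c 1 and C57BL/6 3. Without the 2 arrays of high muscle score, a choice made after seeing the data, SWR had 2, 129X1 0 and BALB/c 2. The highest counts under any of the 9 alternatives were 5 in AKR and BALB/c and 6 in each of the remaining strains. The causes were not tested. Of 27 called strain differences, 8 were called under all 9 alternatives and with each of the 24 arrays left out: Tm7sf2 and Sc5d in AKR, Dhcr7 and Scd2 in SWR, Sc5d in FVB, Scd2 in BALB/c, and Sc5d and Elovl5 in C57BL/6. The Sc5d calls in AKR and FVB were made against a mean that includes C57BL/6, which no alternative left out as a strain. Fasn in FVB lost its call under the adipocyte covariate alone. No difference changed sign.

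With the replicate block, the counts were 16 among strains, 5 in AKR, 3 in SWR, 3 in 129X1, 4 in FVB, 4 in BALB/c, 6 in C57BL/6 and 54 over pairs; Tm7sf2 in SWR (0.0512) and Cyp51 in 129X1 (0.0502) lost their calls. Of 24 arrays, 3 correlated best with an array of their own number in another strain, so the numbers gave no hint of pairing.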

Other observations

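Genes of the same pathways outside the list also differed among strains, 36.4% of all tested probe sets being called. Of 13 tested fatty acid synthesis genes, 9 were called by limma's F test. Thrsp, a lipogenic protein of fat and liver, was 4.96-fold apart and highest in FVB (6.61 ± 1.54, SD, n = 4, against strain means of 4.30 to 5.44 elsewhere; adjusted p = 0.00162). Its adjusted p was 0.516 with the adipocyte score in the model. Elovl7, an elongase, was higher in 129X1 (difference 0.59, adjusted p = 0.00151) and BALB/c (0.67, 0.000303) and lower in SWR (-0.69, 0.000448). The BALB/c call was lost with the mean of its probe sets (0.418). Elovl7 was also called lower in C57BL/6 (-0.43, limma adjusted p = 0.0184), a call lost under 5 of the 33 alternatives and omissions. Scd1, the desaturase related to Scd2, was lower in BALB/c as Scd2 was (-0.73, adjusted p = 0.000223). In 129X1 Scd1 was called higher (0.44, limma adjusted p = 0.0227). That call was lost without 129X1 replicate 2 (0.104) or 3 (0.143) and with the mean of its probe sets (0.317).

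Of 6 tested sterol synthesis and response genes, 2 were called. Stard4, a carrier of cholesterol, was higher in BALB/c by 0.37 (limma adjusted p = 0.035), a call lost without BALB/c replicate 2 (0.166) or 4 (0.175), without rescaling (0.113), with the adipocyte score in the model (0.0551) and without the 2 high-muscle arrays (0.0549). With the mean of its probe sets the Stard4 difference was 0.19 (0.223). Mbtps1, the protease that cuts the sterol-regulated factors, was higher in BALB/c by 0.30 (0.0189), lost without BALB/c replicate 2 (0.0611) or 3 (0.0653), without rescaling (0.139), with quantile normalization (0.0948) and with the adipocyte score in the model (0.185). With the mean of its probe sets the Mbtps1 difference was 0.02 (0.874).

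Of 9 tested genes of cholesterol export and storage, 4 were called. Apoe, a carrier of lipids between cells, was lowest in C57BL/6 (7.98 ± 0.22, SD, n = 4), with a difference of -1.12 (limma adjusted p = 7.43e-07), and higher in SWR (0.68, 0.000714). Both calls held under all 33 alternatives and omissions. Apoe was also called higher in AKR (0.41, limma adjusted p = 0.0332), a call lost without AKR replicate 2 (0.145), 3 (0.0877) or 4 (0.0651). Scarb1, the receptor for high-density lipoprotein, was higher in FVB by 0.45 (0.0157), a call lost without FVB replicate 1 (0.0974), 2 (0.0616) or 4 (0.0817) and with the adipocyte score in the model (0.123). Lipa, the lysosomal lipase, was higher in BALB/c by 0.48 (0.00847), lost without BALB/c replicate 1 (0.0646) and 0.30 with the mean of its probe sets (0.0126).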
